A study of Mus musculus with 6 samples.

Results

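Interferon-stimulated genes were followed through the 6 RNA-sequencing libraries of a mouse model of acute lymphoblastic leukemia and of the normal B-cell progenitors it was set against. The set holds 32 genes chosen by name, and all 32 were found among the 33924 genes of the count table. Leukemia 92 and leukemia 1, with 2 libraries each, were primary leukemias of bone marrow with the genotype Mll-Af4/ N-RasG12D. Both began as c-Kit+ and Sca1+ marrow cells of young Mll-Af4 mice, into which a virus with Cre and TdTomato and then a virus with N-RasG12D were brought. The cells were injected into lethally irradiated recipients together with wild-type helper marrow, so normal donor blood cells could be present beside the leukemia. The other 2 libraries held wildtype pro-B cells, which were sorted from bone marrow by the gate B220+CD43+IgM- and carry no allele or virus of the model. The labels number 2 replicates per group and do not say that these are separate animals, so the spread between libraries of leukemia 92 or of pro-B cells may be technical. The libraries of leukemia 1 differed far more, as given below. P-values measure only the spread of the values that a test used. Against pro-B cells these were 2 leukemia sums and 2 pro-B libraries, and between the leukemias they were the 6 libraries.

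Interferons are secreted antiviral cytokines. Type I interferons bind the receptor of Ifnar1 and Ifnar2, and the kinases Jak1 and Tyk2 then activate Stat2, which joins Irf9 in a complex called ISGF3 that binds the interferon-stimulated response element (ISRE) in target promoters. Interferon gamma binds Ifngr1 and Ifngr2 and acts on target promoters through the gamma-activated sequence (GAS); Irf1 and the immunity-related and guanylate-binding GTPases (IRG and GBP families) are classic targets of this arm. In bone marrow, plasmacytoid dendritic cells are known as strong producers of type I interferon, and T and NK cells as producers of interferon gamma.

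The letters that these factors bind were looked up in RefSeq promoter windows of build GRCm38.p6, which run from 250 bases before to 50 bases after a start site; 25 of the 32 members had a window. The ISRE core GAAANNGAAA, on either strand, was in the windows of 14 of 25 members (56%), against 1079 of 27025 genes of the whole promoter table (3.99%). The GAS letters TTCNNNGAA, which read the same on both strands, were in 5 of 25 members (20%), against 9.55% of all genes, and 0 matches of the motifs overlapped each other. A match describes letters and is not evidence of binding. Of the members called lower against pro-B cells below, Ifih1, Ddx58 and Eif2ak2 had an ISRE match in the window. Irf7, Ifit2, Ifi44 and Xaf1 had no ISRE match. The stretches of 150 bases before the start are shown for 6 other members, with motif matches in capitals. None of these 6 was called against pro-B cells. Gbp2 and Gbp3 followed from the naming rule and the other 4 were chosen after values were seen.
Gbp2 (chr3:142620513-142620662, plus strand): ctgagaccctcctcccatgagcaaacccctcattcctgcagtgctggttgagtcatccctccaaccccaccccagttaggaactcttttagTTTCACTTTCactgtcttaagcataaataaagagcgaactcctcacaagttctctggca
Gbp3 (chr3:142559894-142560043, plus strand): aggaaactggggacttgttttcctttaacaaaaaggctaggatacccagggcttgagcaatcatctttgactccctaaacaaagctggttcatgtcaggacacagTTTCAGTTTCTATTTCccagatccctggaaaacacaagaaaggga
Irgm1 (chr11:48871421-48871570, minus strand): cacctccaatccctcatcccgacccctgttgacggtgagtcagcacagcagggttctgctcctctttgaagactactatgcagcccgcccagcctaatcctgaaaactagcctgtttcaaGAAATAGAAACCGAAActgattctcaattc
Irf1 (chr11:53769864-53770013, plus strand): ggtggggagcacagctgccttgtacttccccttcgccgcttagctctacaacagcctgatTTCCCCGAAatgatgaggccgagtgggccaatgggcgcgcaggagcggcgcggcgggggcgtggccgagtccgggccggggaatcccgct
Isg15 (chr4:156200819-156200968, minus strand): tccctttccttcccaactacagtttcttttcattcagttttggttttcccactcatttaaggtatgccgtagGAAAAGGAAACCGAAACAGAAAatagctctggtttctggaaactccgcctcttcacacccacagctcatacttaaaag
Oas3 (chr5:120777660-120777809, minus strand): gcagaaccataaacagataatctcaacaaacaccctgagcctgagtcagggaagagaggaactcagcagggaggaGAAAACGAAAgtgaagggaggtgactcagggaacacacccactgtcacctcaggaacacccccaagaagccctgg
The ISRE match of Gbp2 begins 59 bases before the start, and Gbp3 has an overlapping pair that begins at 45 and 39 bases before it. Irgm1 also carries an overlapping pair, at 30 and 24 bases before the start. Irf1 shows no ISRE letters here and a GAS match at 90 bases before the start. Isg15 holds 3 overlapping ISRE matches from 78 bases before the start, and Oas3 holds 1 at 75 bases before it.

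Libraries held 22153444 to 27444759 counts in genes, with 17960 to 19714 genes detected, and 3 counts were worth 0.111 to 0.140 CPM, the unit of all levels below (counts per library, scaled by edgeR with its TMM factors). The pro-B libraries expressed Cd79a, Dntt and Rag1, at 413 to 451, 604 to 970 and 319 to 360 CPM, so the sort held B-lineage progenitors. The leukemia libraries expressed Cd79a at 993 to 1443 CPM, while Dntt was at 0 to 1.11 CPM and Rag1 at 10.4 to 73.0 CPM. The 2 libraries of leukemia 1 stood far apart from each other: log2 differences between them had an SD of 1.04 over genes, against 0.253 in leukemia 92 and 0.249 in pro-B cells. Granulocyte markers summed to 184 CPM in replicate 1 and 16658 CPM in replicate 2 of leukemia 1. Counts of 4 Y-linked genes (Ddx3y, Eif2s3y, Kdm5d and Uty) summed to 121 and 1205 in these 2 libraries, to 0 and 6 in leukemia 92 and to 0 in both pro-B libraries. Levels of all members are therefore given library by library below. For each called member the adjusted p is given where leaving out 1 library of a leukemia lost the call. For other genes some results are given only as a change over both leukemias. Members that gained a call in such a fit are counted and not named.

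Against pro-B cells the interferon-stimulated genes of the leukemias did not move as 1 block. Of 32 members 7 were lower (Irf7, Ifit2, Ifih1, Ddx58, Eif2ak2, Ifi44 and Xaf1), 1 was higher (Oas2) and 24 did not pass the test, an edgeR quasi-likelihood fit of 2 leukemias (counts summed over the libraries of each) against 2 pro-B libraries, with a gene called where its p, after Benjamini-Hochberg adjustment over 15280 genes, was under 0.05. Over all genes tested 10.7% were called lower and 9.54% higher, against 21.9% and 3.12% of the members. The median log2 change was -0.40 over the members and 0.02 over all genes, and 22 members had a negative change. All 32 members passed the filter on low counts. In 12 members all 4 leukemia libraries lay below both pro-B libraries, and in 1, Oasl1, all 4 lay above; over all genes tested these shares were 27.3% and 23.4%.

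**Figure D1:**
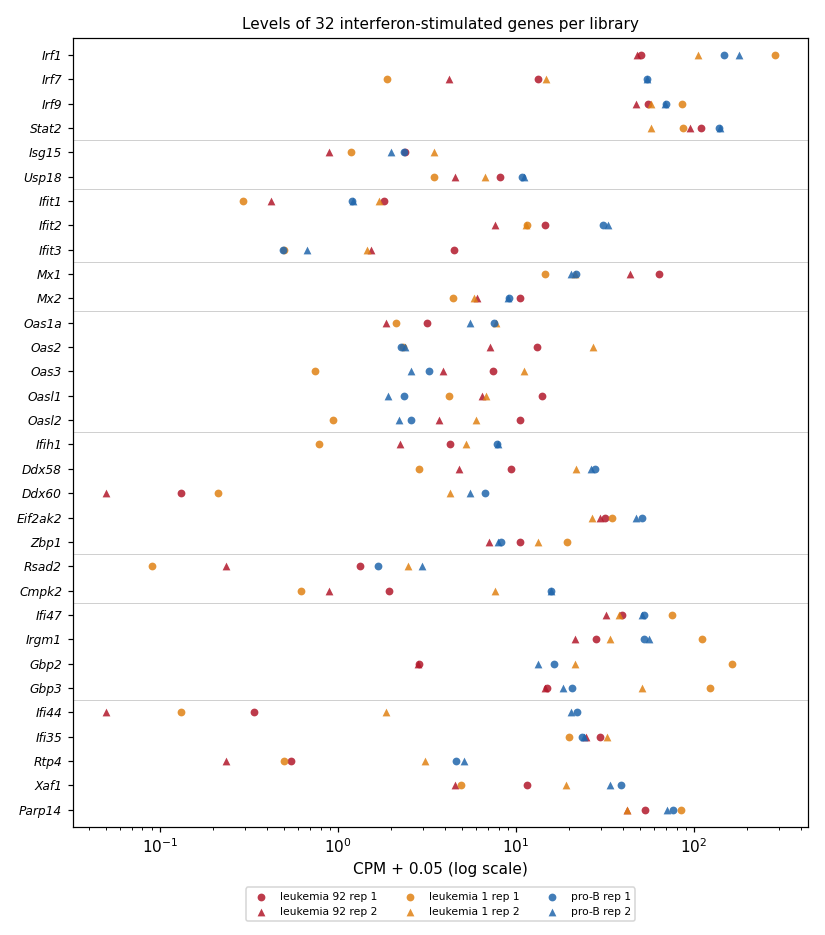
Level of each of the 32 genes in each library, as CPM with 0.05 added, on a log axis; colour marks the group, circles are replicate 1 and triangles replicate 2, and grey lines separate the roles. The paired blue pro-B points nearly coincide in most rows, whereas the orange leukemia 1 points often lie far apart, as for Irf7 at 1.83 and 14.8 CPM and Gbp2 at 164 and 21.6 CPM.

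Because counts of a leukemia were summed, this test does not see the difference between its libraries; a fit of all 6 libraries with 1 coefficient per group called 3 members lower (Ifit2, Eif2ak2 and Ifi44) and 1 higher (Oasl1), where 17.4% and 14.1% of all genes were. Without leukemia 1 replicate 1 the edgeR counts were 1 higher and 2 lower, where 6.39% of all genes were higher and 6.99% lower. Without its replicate 2 they were 0 higher and 6 lower (6.89% and 12% of all genes), and without leukemia 92 replicate 1 they were 2 higher and 5 lower (10.7% and 11.7% of all genes). The called members were in part different ones. Compared with the summed fit of all libraries, 6 members lost their call and 1 gained one without leukemia 1 replicate 1. Without replicate 2 of leukemia 1, 5 lost and 3 gained a call, and without leukemia 92 replicate 1, 3 lost and 2 gained one. Without either pro-B library edgeR called 0 of all genes, with 2645 and 2650 genes under 0.05 before adjustment, so each call below is lost there.

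Of the 4 transcription factors Irf7 fell, and Stat2, Irf9 and Irf1 did not pass the test. Irf7, which amplifies the type I interferon response, had 13.3 and 4.16 CPM in leukemia 92, 1.83 and 14.8 CPM in leukemia 1, and 54.7 and 54.6 CPM in pro-B cells. All 4 leukemia libraries lay below the pro-B libraries, and the log2 change was -2.62 (SE 0.14, edgeR adjusted p = 0.00749); without leukemia 1 replicate 2 it was -3.29 with an adjusted p of 0.0744. Stat2, the ISGF3 subunit with the activation domain, had 110 and 94.98 CPM in leukemia 92, 87.3 and 57.5 CPM in leukemia 1, and 139 and 140 CPM in pro-B cells. Its groups did not overlap, yet its change of -0.66 (SE 0.24) missed the threshold (adjusted p = 0.132). Irf9, the DNA-binding subunit of ISGF3, had 55.1 and 47.5 CPM in leukemia 92, 86.2 and 57.6 CPM in leukemia 1, and 69.9 and 68.9 CPM in pro-B cells, and these ranges overlapped. Irf1, a factor with targets in both arms, had 50.3 and 48.0 CPM in leukemia 92, 286 and 106 CPM in leukemia 1, and 148 and 180 CPM in pro-B cells. Leukemia 92 lay below and leukemia 1 replicate 1 above the pro-B libraries, and the change over both leukemias was -0.46 (SE 0.66, edgeR adjusted p = 0.649).

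Neither Isg15, a ubiquitin-like protein that is joined to other proteins, nor Usp18, the protease that removes it and damps the type I receptor, passed the test. Isg15 had 2.34 and 0.841 CPM in leukemia 92, 1.14 and 3.40 CPM in leukemia 1, and 2.30 and 1.95 CPM in pro-B cells. The groups overlapped and the change was -0.10 (SE 0.36, edgeR adjusted p = 0.866). Usp18 had 8.10 and 4.49 CPM in leukemia 92, 3.41 and 6.69 CPM in leukemia 1, and 10.8 and 11.1 CPM in pro-B cells. Usp18 lay below pro-B in all 4 leukemia libraries (log2 change -0.91, SE 0.27, adjusted p = 0.0877).

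The IFIT proteins bind viral RNA and limit its translation. Ifit2 had 14.6 and 7.57 CPM in leukemia 92, 11.5 and 11.4 CPM in leukemia 1, and 31.0 and 32.9 CPM in pro-B cells. Its log2 change was -1.48 (SE 0.15, edgeR adjusted p = 0.0159), and it remained called when any 1 of the 4 leukemia libraries was left out, with adjusted p values of 0.0189 to 0.0291. Ifit1 had 1.77 and 0.374 CPM in leukemia 92, 0.244 and 1.66 CPM in leukemia 1, and 1.15 and 1.17 CPM in pro-B cells, and its groups overlapped. Ifit3 had 4.44 and 1.496 CPM in leukemia 92, 0.447 and 1.41 CPM in leukemia 1, and 0.445 and 0.624 CPM in pro-B cells. Its change of 1.93 (SE 0.76) missed the threshold (adjusted p = 0.15), although its chromosomal neighbour Ifit2, with 0 protein-coding genes between them in RefSeq, fell. Ifit1, Ifit3 and Oas1a have close copies in the mouse genome, and their counts are uncertain where reads are shared with a copy.

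The MX GTPases, dynamin-like antiviral proteins, did not pass the test against pro-B cells. Mx1 had 64.0 and 43.7 CPM in leukemia 92, 14.5 and 21.5 CPM in leukemia 1, and 21.7 and 20.2 CPM in pro-B cells. Only leukemia 92 lay above pro-B, and the change over the 2 leukemias was 0.82 (SE 0.59, edgeR adjusted p = 0.374). Mx2 had 10.5 and 6.03 CPM in leukemia 92, 4.39 and 5.77 CPM in leukemia 1, and 9.08 and 8.97 CPM in pro-B cells, with overlap of leukemia 92 and pro-B. RefSeq annotates both as transcribed pseudogenes in this reference strain.

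In the OAS family 4 of 5 members had a positive log2 change, with a median of 1.24, and 1 passed the test. These enzymes make oligoadenylates that activate RNase L, and Oasl1 and Oasl2 are related proteins. Oas2 had 13.1 and 7.10 CPM in leukemia 92, 2.28 and 27.1 CPM in leukemia 1, and 2.22 and 2.34 CPM in pro-B cells. Leukemia 1 replicate 1 was at the pro-B level and the other 3 leukemia libraries lay above it. Oas2 rose by a log2 change of 2.48 (SE 0.31, edgeR adjusted p = 0.0189). It did not pass when replicate 1 of leukemia 1 was left out (3.05, adjusted p = 0.0512), nor when replicate 2 was (1.495, adjusted p = 0.29). Oasl1 had 14.0 and 6.45 CPM in leukemia 92, 4.19 and 6.73 CPM in leukemia 1, and 2.30 and 1.87 CPM in pro-B cells. It was the 1 member above pro-B in all 4 leukemia libraries, and its change of 1.96 (SE 0.47) missed the threshold (adjusted p = 0.0609). Oas3 had 7.40 and 3.83 CPM in leukemia 92, 0.691 and 11.02 CPM in leukemia 1, and 3.22 and 2.54 CPM in pro-B cells. Oasl2 had 10.6 and 3.65 CPM in leukemia 92, 0.894 and 5.95 CPM in leukemia 1, and 2.52 and 2.15 CPM in pro-B cells. In both genes leukemia 1 replicate 1 lay below pro-B and the other leukemia libraries above it. Oas1a had 3.13 and 1.82 CPM in leukemia 92, 2.07 and 7.73 CPM in leukemia 1, and 7.48 and 5.46 CPM in pro-B cells, so its 1 high leukemia library overlapped pro-B.

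Of 5 members that sense nucleic acids or are activated by RNA, 3 fell (Ifih1, Ddx58 and Eif2ak2), where 10.7% of all genes did. Ddx60 at -2.40 and Zbp1 at 0.63 did not pass. In 4 of the 5 every leukemia library lay below pro-B, which held for 27.3% of all genes tested. Without leukemia 1 replicate 1 edgeR called 0 of the 5 lower (1 at an unadjusted p under 0.05), where 6.99% of all genes were. It called 1 without replicate 2 of leukemia 1 (12% of all genes) and 1 in the fit of 6 libraries (17.4%). DESeq2 called 3 (14.3% of all genes). Ifih1, which encodes the long-RNA sensor MDA5, had 4.24 and 2.20 CPM in leukemia 92, 0.732 and 5.18 CPM in leukemia 1, and 7.82 and 7.88 CPM in pro-B cells. It fell by 1.30 (SE 0.28, edgeR adjusted p = 0.0464); with leukemia 92 replicate 2 left out the adjusted p was 0.0898, and with leukemia 1 replicate 1 or 2 left out it was 0.169 or 0.188. Ddx58, which encodes the 5'-triphosphate RNA sensor RIG-I, had 9.38 and 4.77 CPM in leukemia 92, 2.80 and 21.7 CPM in leukemia 1, and 27.6 and 26.3 CPM in pro-B cells. Its log2 change was -1.44 (SE 0.31, edgeR adjusted p = 0.0481). It did not pass with leukemia 92 replicate 1 left out (adjusted p = 0.0893), and with leukemia 1 replicate 1 or 2 left out the changes were -0.89 and -2.40, at adjusted p values of 0.344 and 0.0588. Eif2ak2, the kinase PKR that halts translation on double-stranded RNA, had 31.7 and 29.6 CPM in leukemia 92, 34.6 and 26.7 CPM in leukemia 1, and 50.8 and 47.0 CPM in pro-B cells. All 4 leukemia libraries lay close together, with a change from pro-B of -0.67 (SE 0.13, edgeR adjusted p = 0.0391); the adjusted p was 0.0557 and 0.0792 when replicate 1 or replicate 2 of leukemia 1 was left out. Ddx60, a helicase, had 0.0822 and 0 CPM in leukemia 92, 0.163 and 4.22 CPM in leukemia 1, and 6.63 and 5.46 CPM in pro-B cells. It was near the detection limit in 3 of 4 leukemia libraries, and its change of -2.40 had an SE of 1.55 and did not pass (edgeR adjusted p = 0.326). Zbp1, a sensor of Z-form nucleic acids, had 10.6 and 7.01 CPM in leukemia 92, 19.2 and 13.2 CPM in leukemia 1, and 8.22 and 7.88 CPM in pro-B cells, and only its leukemia 92 replicate 2 lay below pro-B.

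Rsad2, the antiviral radical SAM enzyme viperin, and Cmpk2, a mitochondrial nucleotide kinase, are neighbours with 0 protein-coding genes between them in RefSeq. Rsad2 had 1.27 and 0.187 CPM in leukemia 92, 0.0406 and 2.44 CPM in leukemia 1, and 1.63 and 2.93 CPM in pro-B cells. Cmpk2 had 1.89 and 0.841 CPM in leukemia 92, 0.569 and 7.62 CPM in leukemia 1, and 15.8 CPM in both pro-B libraries. Cmpk2 lay below pro-B in every leukemia library, by a log2 change of -2.49 (SE 0.59) that missed the threshold (edgeR adjusted p = 0.0591), and Rsad2 overlapped.

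The IRG and GBP GTPases act in defence against intracellular pathogens. Of the 4 members 0 passed the edgeR test against pro-B cells, also at an unadjusted p under 0.05 and by DESeq2. In 4 of 4 the ranges overlapped. Between the leukemias 0 of 4 passed the adjusted threshold either. In that fit 3 of 4 had an unadjusted p under 0.05, where 25.1% of all genes did. DESeq2 called 3 lower in leukemia 92, where 9.15% of all genes were. Gbp2 had 2.80 and 2.76 CPM in leukemia 92, 164 and 21.6 CPM in leukemia 1, and 16.4 and 13.3 CPM in pro-B cells. Gbp3 had 14.9 and 14.6 CPM in leukemia 92, 123 and 51.4 CPM in leukemia 1, and 20.7 and 18.3 CPM in pro-B cells. For both genes leukemia 92 lay below and leukemia 1 above the pro-B libraries. Irgm1 had 28.003 and 21.5 CPM in leukemia 92, 111 and 33.9 CPM in leukemia 1, and 52.8 and 56.2 CPM in pro-B cells. Ifi47 had 39.6 and 32.2 CPM in leukemia 92, 75.2 and 37.9 CPM in leukemia 1, and 52.4 and 51.0 CPM in pro-B cells. In these 2 genes leukemia 1 replicate 1 was above pro-B and the other 3 leukemia libraries below it.

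Among the remaining members, Ifi44 had the largest change of the 32. Ifi44, a cytoplasmic protein induced by type I interferon, had 0.288 and 0 CPM in leukemia 92, 0.0813 and 1.81 CPM in leukemia 1, and 22.0 and 20.4 CPM in pro-B cells. Every leukemia library lay below both pro-B libraries, and the log2 change was -5.21 (SE 0.94, edgeR adjusted p = 0.0357); it was 0.0629 with leukemia 92 replicate 1 left out and 0.0952 with leukemia 1 replicate 1 left out. Xaf1, which antagonises the apoptosis inhibitor XIAP, had 11.5 and 4.53 CPM in leukemia 92, 4.88 and 19.1 CPM in leukemia 1, and 39.0 and 33.9 CPM in pro-B cells. It fell by 1.83 (SE 0.24, edgeR adjusted p = 0.0212), and did not pass with replicate 1 of leukemia 92 left out (adjusted p = 0.0562) or replicate 1 of leukemia 1 left out (adjusted p = 0.123). Rtp4, a receptor transporter protein, had 0.493 and 0.187 CPM in leukemia 92, 0.447 and 3.03 CPM in leukemia 1, and 4.59 and 5.07 CPM in pro-B cells. The groups did not overlap, and the change of -2.18 (SE 0.84) missed the threshold (adjusted p = 0.145). Ifi35 had 29.5 and 24.7 CPM in leukemia 92, 19.8 and 32.5 CPM in leukemia 1, and 23.6 and 24.0 CPM in pro-B cells. Parp14, an ADP-ribosyltransferase, had 53.3 and 42.3 CPM in leukemia 92, 84.7 and 42.1 CPM in leukemia 1, and 76.1 and 70.5 CPM in pro-B cells, and like Ifi35 it overlapped.

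**Figure D2:**
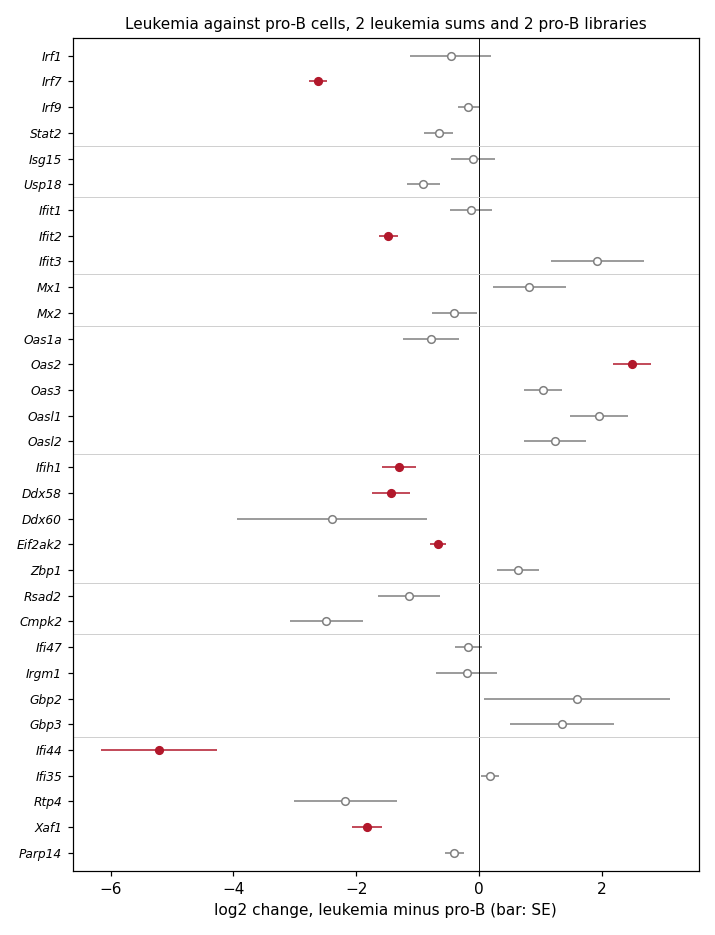
Log2 change of leukemia minus pro-B for each member from the edgeR fit of 2 leukemia sums against 2 pro-B libraries, with bars of 1 SE; filled red points have an adjusted p under 0.05. The 7 filled points left of 0 run from Eif2ak2 at -0.67 to Ifi44 at -5.21, and the 1 filled point right of 0 is Oas2 at 2.48.

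Levels between genes were compared per kilobase of exon (GENCODE M21 gene models). In pro-B cells the highest members were Irf1 at 49.2, Stat2 at 31.7, Ifi47 at 27.5, Irgm1 at 23.6 and Irf7 at 22.9 CPM per kb. The lowest there were Ifit3 at 0.306 and Ifit1 at 0.436 CPM per kb. Irf7 was at 3.65 CPM per kb in leukemia 92 and 3.48 CPM per kb in leukemia 1, and Ifi44 was at 0.0495 and 0.325 CPM per kb in them, against 7.30 CPM per kb in pro-B cells. Gbp2 was at 1.10 CPM per kb in leukemia 92 and 36.9 CPM per kb in leukemia 1, against 5.92 CPM per kb in pro-B cells.

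Between the leukemias, leukemia 92 was set against leukemia 1 in an edgeR fit of all 6 libraries. Of 32 members 0 passed the adjusted threshold, where 3.09% of 14979 genes did; 7 of 32 members (21.9%) had an unadjusted p under 0.05 (1 higher, 6 lower), against 25.1% of all genes (12.2% higher, 12.9% lower), so the share in both directions together was not above the background. By DESeq2 1 member was higher and 5 were lower, where 9.04% and 9.15% of all genes were. Over the members the median log2 change was -0.50, against -0.08 over all genes tested. Both leukemia 92 libraries lay below both leukemia 1 libraries in 7 members (Irf1, Irf9, Ddx60, Zbp1, Irgm1, Gbp2 and Gbp3) and above them in 4 (Stat2, Ifit3, Mx1 and Mx2), where the shares over all genes tested were 25.8% and 25.4%. Gbp2 had the largest difference of the 4 IRG and GBP members, -5.06 (SE 1.07, edgeR adjusted p = 0.0766), with the 4 values given above. The difference of Gbp3 was -2.57 (SE 0.44, adjusted p = 0.0581) and that of Irf1 -1.996 (SE 0.49, adjusted p = 0.0956). Mx1 was the member nearest to a call on the other side, at 1.58 (SE 0.29, edgeR adjusted p = 0.0607). Ddx60 had 2 counts in leukemia 92 and 118 in leukemia 1, a ratio of 0.0191 after scaling for depth (95% exact interval from the counts 0.00229 to 0.0707, which covers counting error alone). Nearly all of its leukemia 1 counts were in replicate 2. Without leukemia 1 replicate 1 edgeR called 2 members higher and 11 lower, and without its replicate 2 it called 7 higher and 8 lower; the lone library is then assumed to vary like the other groups. These were 40.6% and 46.9% of the members, where 50.5% and 52.5% of all genes were called.

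**Figure D3:**
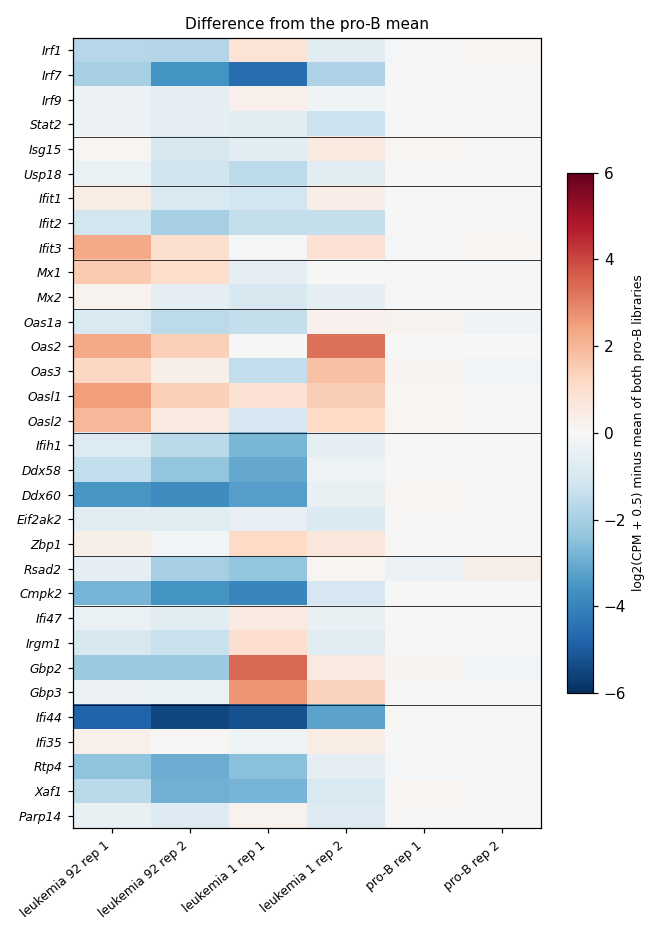
Difference of each library from the pro-B mean for each member, as log2(CPM + 0.5), in rows ordered by role and columns by library; red is above and blue below the pro-B mean. The Gbp2 and Gbp3 rows are red in leukemia 1 and blue in leukemia 92, and Irf7, Ifi44, Cmpk2 and Xaf1 are blue in all 4 leukemia columns.

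The members also differed between the libraries of 1 leukemia. In leukemia 92, replicate 1 was higher than replicate 2 in 32 of 32 members, where it was higher in 48.6% of all genes tested. The median log2 ratio of replicate 1 to replicate 2 was 0.70 over the members and 0.00 over all genes (CPM + 0.5), and 8 members (25%) differed 2-fold or more, against 0.668% of all genes. Irf7 had the largest such ratio, at 13.3 and 4.16 CPM, and Gbp2 the smallest, at 2.80 and 2.76 CPM. In leukemia 1, 11 members were higher in replicate 1 and 21 in replicate 2, where 46.4% of all genes were higher in replicate 1. A 2-fold difference was reached by 21 members (65.6%), 5 towards replicate 1 and 16 towards replicate 2, against 20.9% of all genes. All 4 IRG and GBP genes and Irf1 were higher in leukemia 1 replicate 1, whereas all 5 OAS members, both MX genes, Irf7 and Isg15 were higher in replicate 2. In pro-B cells 19 members were higher in replicate 1, where 47.1% of all genes were, and 0 members differed 2-fold, against 0.521% of all genes.

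**Figure D4:**
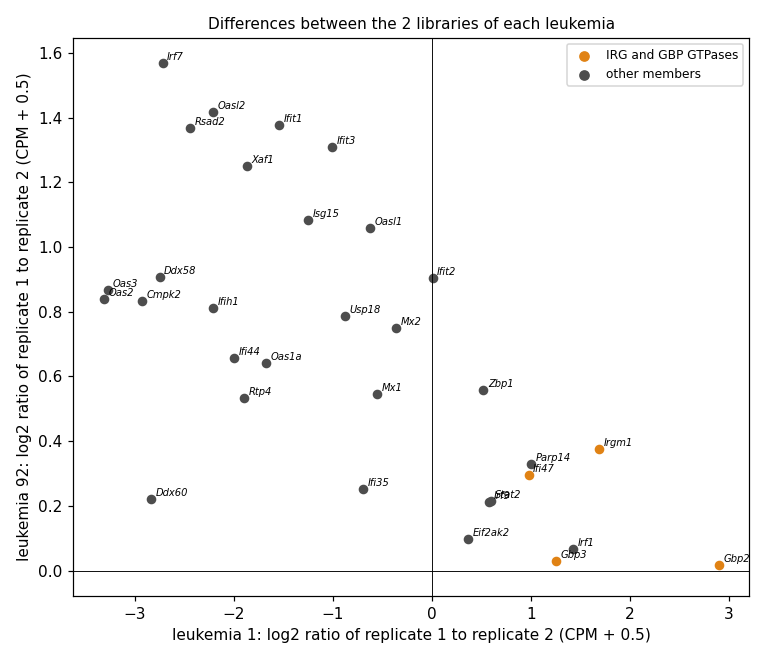
Log2 ratio of replicate 1 to replicate 2 (CPM + 0.5) of each member in leukemia 1 on the horizontal axis and in leukemia 92 on the vertical axis; orange points are the IRG and GBP GTPases. Every point lies above 0 on the vertical axis, and the 4 orange points lie right of 0 on the horizontal axis while most dark points lie left of it.

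Myeloid markers also differed between these libraries, as did other marker lists. In leukemia 92 all 15 granulocyte markers were higher in replicate 1, with sums of 807 and 461 CPM in replicates 1 and 2, and 9 of 11 monocyte and macrophage markers were too, with sums of 2638 and 2101 CPM. In leukemia 1 all 15 granulocyte markers and 9 of 11 monocyte and macrophage markers were higher in replicate 2, with monocyte sums of 599 CPM in replicate 1 and 2971 CPM in replicate 2. The 11 members higher in leukemia 1 replicate 1 went the other way from most of these markers. T and NK markers were higher in replicate 2 in 15 of 17 in leukemia 1 and 7 of 17 in leukemia 92. Pro-B markers were higher in replicate 2 in 11 of 16 and 10 of 16. Of 67 other interferon-induced genes with reads, 51 were higher in leukemia 92 replicate 1 than in replicate 2. In leukemia 1, 24 were higher in replicate 1 and 43 in replicate 2. The part of any of these cells in the member levels was not tested.

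Summed markers of cells that a B220+CD43+IgM- gate may also hold were higher in the pro-B libraries than in the leukemia libraries. Plasmacytoid dendritic markers summed to 2313 and 2234 CPM in leukemia 92 and 2483 and 2079 CPM in leukemia 1. They summed to 5876 and 6559 CPM in pro-B cells. Of these 14 markers 8 fell in the leukemias and 0 rose, where 10.7% and 9.54% of all genes did. Cox6a2 and Atp1b1 had positive log2 changes (0.50 and 0.16), and the other 12 had negative ones. Siglech, which defines these cells, had 33.9 and 32.4 CPM in leukemia 92, 23.5 and 15.0 CPM in leukemia 1, and 1369 and 1545 CPM in pro-B cells, while Klk1 was at 0 in 3 of 4 leukemia libraries. T and NK markers summed to 37.9 and 33.8 CPM in leukemia 92 and 10.3 and 77.9 CPM in leukemia 1. Their sums were 720 and 700 CPM in pro-B cells. Of these 17 markers 9 fell and 0 rose, and all 17 had a negative log2 change. The T-cell markers Cd3d, Cd3e and Cd3g were at only 1.91 to 4.60 CPM in pro-B cells, and at 3.85 to 4.88 CPM in leukemia 1 replicate 2. The sums of both lists moved in the same direction as the 7 lower members, and their part in the result was not tested. In bulk RNA, fewer cells of a type and less RNA per cell cannot be told apart. Of the other marker lists, 1 of 16 pro-B markers rose and 4 fell, and 0 of 15 granulocyte markers passed (7 at an unadjusted p under 0.05). The other risers were 5 of 11 monocyte and macrophage markers and 3 of 7 mature B markers, and 6 of 7 erythroid markers tested fell. Over all genes tested 9.54% rose and 10.7% fell.

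**Figure D5:**
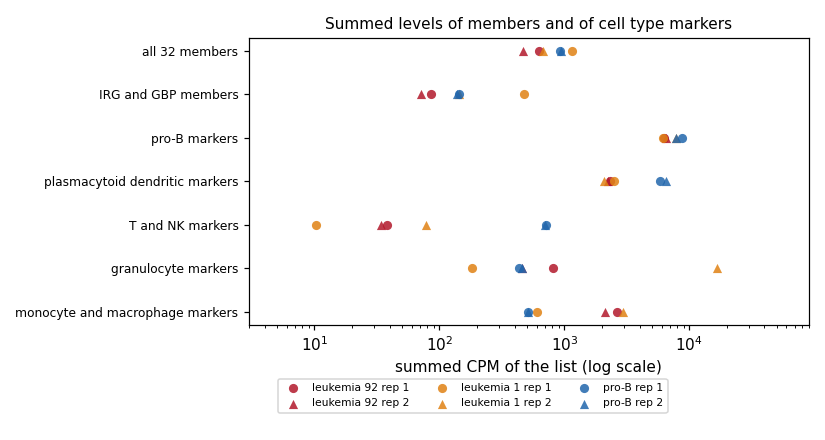
Summed CPM of all members, of the IRG and GBP members and of 5 cell type marker lists in each library, on a log axis; colour marks the group, circles are replicate 1 and triangles replicate 2. Members summed to 623 and 469 CPM in leukemia 92, 1148 and 671 CPM in leukemia 1, and 932 and 941 CPM in pro-B cells, while granulocyte markers of leukemia 1 replicate 2 stood apart at 16658 CPM.

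Genes upstream of the members (ligands, receptors and regulators, regulatory factors and nucleic acid sensing) were read from 4 lists of the interferon pathway, of which 43 genes were tested against pro-B cells. Of these 10 rose (23.3%) and 3 fell (6.98%), against 9.54% and 10.7% of all genes, with a median log2 change of 0.20, against 0.02 over all genes. Without leukemia 1 replicate 1 the counts were 1 higher and 3 lower, where 6.39% and 6.99% of all genes were. Interferon ligands were almost silent: 11 of 17 had 0 counts in every library and Ifng alone passed the filter. Ifng, interferon gamma, had 0 CPM in both leukemia 92 libraries, 0.203 and 2.22 CPM in leukemia 1, and 9.45 and 10.9 CPM in pro-B cells. It lay below pro-B in all 4 leukemia libraries, and its change of -4.03 (SE 1.76) did not pass (edgeR adjusted p = 0.183).

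Of 17 receptors, kinases and regulators 3 rose and 2 fell, where 9.54% and 10.7% of all genes did. Ifnar2, the signalling chain of the type I receptor, had 60.2 and 57.9 CPM in leukemia 92, 79.5 and 55.2 CPM in leukemia 1, and 137 and 143 CPM in pro-B cells; it fell by 1.15 (SE 0.12, edgeR adjusted p = 0.0154). Il10rb, which the type III interferon receptor uses, fell by 1.31 (adjusted p = 0.015). The interferon gamma receptor chain Ifngr2 had 169 and 164 CPM in leukemia 92, 188 and 92.7 CPM in leukemia 1, and 43.0 and 38.6 CPM in pro-B cells; it rose by 1.91 (SE 0.18, edgeR adjusted p = 0.0149). Stat3 and Jak1 rose by 1.49 (adjusted p = 0.0113) and 0.76 (adjusted p = 0.0366). With leukemia 1 replicate 1 left out, the edgeR adjusted p was 0.0577 for Ifngr2, 0.0697 for Stat3 and 0.108 for Jak1. In that fit 0 genes of the list rose and 2 fell, where 6.39% and 6.99% of all genes did. The other type I receptor chain, Ifnar1, had 148 and 150 CPM in leukemia 92, 287 and 110 CPM in leukemia 1, and 221 and 240 CPM in pro-B cells (adjusted p = 0.137).

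Of 8 other interferon regulatory factors 2 rose and 0 fell, where 9.54% and 10.7% of all genes did. Irf3, which starts interferon transcription after nucleic acid sensing, had 94.4 and 103 CPM in leukemia 92, 88.2 and 86.0 CPM in leukemia 1, and 55.7 and 54.3 CPM in pro-B cells. It rose by 0.76 (SE 0.14, edgeR adjusted p = 0.0366) and Irf5, which acts below Toll-like receptors, by 1.38 (adjusted p = 0.0239). Of 17 genes of nucleic acid sensing 5 rose (29.4%) and 1 fell (5.88%), against the same shares of all genes. The adaptors Ticam1 and Traf3 rose by 1.81 (adjusted p = 0.0129) and 1.28 (adjusted p = 0.0162), and the kinase Tbk1 rose by 0.79 (adjusted p = 0.0312). Tlr7, the endosomal receptor of single-stranded RNA, had 27.9 and 28.4 CPM in leukemia 92, 45.2 and 20.8 CPM in leukemia 1, and 93.0 and 99.7 CPM in pro-B cells; it fell by 1.67 (SE 0.13, edgeR adjusted p = 0.0111). With leukemia 1 replicate 1 left out, 0 genes of the sensing list rose and 1 fell, where 6.39% and 6.99% of all genes did. The edgeR adjusted p was then 0.0588 for Ticam1, 0.104 for Traf3, 0.21 for Tbk1 and 0.104 for Irf5.

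Of 64 other interferon-induced genes tested 6 rose (9.38%) and 10 fell (15.6%), where 9.54% and 10.7% of all genes did. Bst2, the surface protein tetherin and also a plasmacytoid dendritic marker, had 53.7 CPM in both leukemia 92 libraries, 62.3 and 81.1 CPM in leukemia 1, and 360 and 419 CPM in pro-B cells; it fell by 2.63 (SE 0.19, edgeR adjusted p = 0.0111). Pml, the organiser of nuclear bodies, fell by 1.30 (adjusted p = 0.0153) and the ubiquitin ligase Herc6 by 1.46 (adjusted p = 0.0159). Ifi30, a lysosomal thiol reductase, had 424 and 463 CPM in leukemia 92, 529 and 635 CPM in leukemia 1, and 73.1 and 81.5 CPM in pro-B cells; it rose by 2.73 (SE 0.18, edgeR adjusted p = 0.00886). Ifi205 and Ifitm2 rose by 3.52 (adjusted p = 0.018) and 1.18 (adjusted p = 0.0262). With leukemia 1 replicate 1 left out 5 genes of this list rose and 5 fell, where 6.39% and 6.99% of all genes did. With its replicate 2 left out 2 rose and 12 fell, where 6.89% and 12% of all genes did. In the latter fit the edgeR adjusted p was 0.192 for Ifi205 and 0.161 for Ifitm2. Between the leukemias, 2 of 65 genes of this list were higher in leukemia 92 (Uba7 and Ifi203) and 1 lower (Cxcl9) in the edgeR fit, where 3.09% of all genes were called, and 0 genes of the other pathway lists were. With the 4 leukemia libraries alone, edgeR called 0 genes of the table, with 2366 at an unadjusted p under 0.05. At an unadjusted p under 0.05 in the 6-library fit were 1 of 1 ligand, 7 of 17 receptors and regulators, 3 of 8 regulatory factors and 2 of 17 genes of sensing, against 25.1% of all genes.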

How the data were processed

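RNA of 6 mouse libraries was extracted with RNeasy kits and made into TruSeq RNA libraries, per the labels' protocols. The deposited table holds read counts, as whole numbers per gene and library. STAR 2.4, HTSeq 0.6.1, DESeq2 and build mm9 appear, with no role or order, per the submitters' processing notes. Neither annotation nor strand setting is given in the sources used here, and reads of overlapping or antisense genes cannot be told apart. The 5 entries that name no gene held 34.0% to 39.6% of a library and were left out.

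Counts were tested with edgeR 4.0.16 in R 4.3.3 (TMM, filterByExpr with a minimum count of 10, robust quasi-likelihood test, Benjamini-Hochberg over all genes tested); every adjusted p is from these fits. SE values follow from the F statistic of each change. Leukemia was set against pro-B with counts summed per leukemia, and leukemia 92 against leukemia 1 with 6 libraries. Alternatives were size factors, total counts, DESeq2 1.42.0, filters, samples and a replicate block. All 32 members were named; of each pathway list, up to 3 called genes per direction with the smallest p, and Ifnar1, Ifnar2, Irf3 and Bst2; 1 further gene of this rule is not reported here. Ifng and the cell type markers given by name were chosen after their values were seen. The members and lists were chosen with earlier results of these data known. Of 128 pathway and 90 marker entries 127 and 88 matched a symbol or RefSeq synonym.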

Additional observations from a re-analysis of the deposited data

Results flagged for a closer look

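In 5 members 1 library lay far from the other 3 leukemia libraries, by a gap test that chance passes in about 1 of 20 groups. These were 15.6% of the members, and 15.1% of all genes tested passed it in these libraries, so the share of members was close to the background. Replicate 2 of leukemia 1 was high for Ddx60 (4.22 CPM), Ifi44 (1.81 CPM) and Rtp4 (3.03 CPM), where the other leukemia libraries were at or below 0.493 CPM. Replicate 1 of leukemia 1 was high for Irgm1 (111 CPM, the others 21.5 to 33.9 CPM) and Gbp2 (164 CPM, the others 2.76 to 21.6 CPM). The 4 libraries come from 2 leukemias and are not 1 group of equals.

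In the fit of 6 libraries, whose spread includes that of the pro-B libraries, 3 of 65 other interferon-induced genes passed the test between the leukemias, where 3.09% of all genes did. Uba7, the activating enzyme for Isg15, had 158 and 148 CPM in leukemia 92 and 73.1 and 79.7 CPM in leukemia 1, a log2 difference of 1.004 (edgeR adjusted p = 0.0313). Ifi203 had 286 and 230 CPM in leukemia 92 and 102 and 121 CPM in leukemia 1, a difference of 1.21 (adjusted p = 0.0443). Cxcl9, a chemokine induced by interferon gamma, had 0.0411 and 0.0935 CPM in leukemia 92 and 8.41 and 6.17 CPM in leukemia 1, a fitted difference of -6.68 (adjusted p = 0.0229). With the 4 leukemia libraries alone the edgeR adjusted p was 0.162 for Uba7, 0.169 for Ifi203 and 0.14 for Cxcl9, and with the replicate block it was 0.11, 0.12 and 0.0985, so 0 of the 3 were called (each had an unadjusted p under 0.05). Each call was also lost without either leukemia 92 library, and without either pro-B library, with 0 genes of the pathway lists called there.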

How the results depend on the processing

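Against pro-B cells, relative log expression size factors, total counts, no filter and a minimum count of 30 moved no count of called members or pathway genes by over 1.5 times, and total counts moved the median of all genes from 0.02 to -0.14. DESeq2 called 3 members higher and 10 lower (13.9% and 14.3% of all genes), and 26 and 20 pathway genes, where edgeR called 16 and 13. The fit of 6 libraries called 3 members lower and 24 pathway genes lower. With the replicate block it called 0 members higher and 2 lower (Ifit2 and Eif2ak2), where 9.67% and 12.9% of all genes were. Gbp2 changed sign to -0.0877 in that fit. Leukemia 92 alone gave 6 members higher and 21 lower (35 and 46 pathway genes), with Gbp2 at -2.40 and Gbp3 at -0.379; leukemia 1 alone gave 7 and 14 (47 and 40 pathway genes), with Irf1 at 0.189, Irf9 at 0.00109, Isg15 at 0.0909, Mx1 at -0.247, Ifi47 at 0.0696 and Irgm1 at 0.332. In these 2 fits 1 summed leukemia is assumed to vary like the pro-B libraries, so the numbers of calls cannot be relied on. The median log2 change in leukemia 92 alone was -0.616 over the members and -0.0306 over all genes. In leukemia 1 alone it was -0.269 over the members and -0.000974 over all genes, so the members lay lower in both fits. Leaving out 1 library gave 0 to 2 members higher, 0 to 7 lower, 0 to 16 pathway genes higher and 0 to 16 lower. Log2 changes that changed sign ran from -1.06 to 0.000794 for Irf1, -0.595 to 0.259 for Isg15, -0.724 to 0.275 for Ifit1, -0.461 to 0.0908 for Ifi47, -0.872 to 0.286 for Irgm1, -0.284 to 2.44 for Gbp2 and -0.00751 to 0.347 for Ifi35.

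For leukemia 92 against leukemia 1, DESeq2 called 1 member higher and 5 lower, and 9 and 19 pathway genes. The replicate block, the 4 leukemia libraries alone and the crossed replicate block each called 0 pathway genes, and 0 members; the crossed block was chosen after seeing the data. Oas3 changed sign to 0.319 with the replicate block and 0.419 with the crossed one, and Eif2ak2 to -0.00407 with total counts and -0.00883 with the 4 libraries. Same-numbered libraries did not deviate together (correlations of -0.161, 0.0612 and -0.0336 over 14979 genes). This check cannot decide whether the numbers pair samples, because a weak pairing could be hidden by the large difference between the leukemia 1 libraries. Leaving out 1 library gave 0 to 7 members higher, 0 to 11 lower, and 0 to 31 and 0 to 48 pathway genes. Differences that changed sign ran from -0.980 to 2.28 for Irf7, -1.41 to 0.507 for Isg15, -0.156 to 0.893 for Usp18, -1.32 to 2.15 for Ifit1, -0.587 to 0.369 for Ifit2, -1.62 to 0.268 for Oas1a, -1.40 to 2.16 for Oas2, -0.953 to 3.02 for Oas3, -0.664 to 2.14 for Ifih1, -1.60 to 1.35 for Ddx58, -0.172 to 0.211 for Eif2ak2, -2.68 to 4.05 for Rsad2, -2.44 to 1.28 for Cmpk2, -7.55 to 0.871 for Ifi44, -0.250 to 0.453 for Ifi35, -1.38 to 0.734 for Xaf1 and -0.821 to 0.196 for Parp14. The cause of these shifts was not tested. At this depth members under about 1 CPM rest on few counts.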

Other observations

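Of 11 further IRG and GBP genes outside the 32, 8 had both leukemia 92 libraries below both leukemia 1 libraries. All 11 came from the list of other interferon-induced genes, and over all genes tested the share was 25.8%. In the edgeR test of leukemia 92 against leukemia 1, 0 of the 11 passed. An unadjusted p under 0.05 was found in 8, where 25.1% of all genes had one. DESeq2 called 8 lower, where 9.15% of all genes were. The exceptions were Gbp4 and Gbp8, whose leukemias overlapped, and Gbp9, with 21.7 and 15.004 CPM in leukemia 92, 19.0 and 8.76 CPM in leukemia 1, and 39.6 and 44.3 CPM in pro-B cells. Leukemia 1 replicate 1 was the highest library for 7 of the 11 genes, and a pro-B library for the other 4 (Gbp4, Gbp6, Gbp8 and Gbp9). The values of 3 of the 8 are given, chosen after they were seen. Iigp1 had 0.0411 and 0.0467 CPM in leukemia 92, 54.1 and 2.48 CPM in leukemia 1, and 1.70 and 2.07 CPM in pro-B cells (adjusted p = 0.082). Gbp5 had 0.905 and 1.45 CPM in leukemia 92, 47.0 and 7.17 CPM in leukemia 1, and 13.4 and 10.7 CPM in pro-B cells (edgeR adjusted p = 0.0843). Gbp6 had 0.0411 and 0.0467 CPM in leukemia 92, 5.97 and 0.998 CPM in leukemia 1, and 8.41 and 7.49 CPM in pro-B cells (edgeR adjusted p = 0.0665).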
